A study of Mus musculus with 15 samples.

Results

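Cell cycle and proliferation genes were read in mouse liver arrays from animals that did or did not express human alpha1-antitrypsin in their hepatocytes. The set holds 48 genes of known role in cell division: cyclins, their kinases and inhibitors, replication and mitosis factors, and growth arrest genes. Members were found by symbol in the annotation of the arrays' probe sets. The list was drawn up by role, with earlier results of these data known. Of the 48 genes, 46 were measured, among 12393 genes tested in all, and Ccnb1 and Trp53 were not analysed here. The measured members had 90 probe sets of their own, and 26 members had more than 1.

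Each of 5 groups held 3 arrays of adult mice labelled male and 3 months old. Transgenic mice carried an inducible human transgene that acts in hepatocytes alone and is silenced by doxycycline. Z-on mice (titled Z4) carried the mutant Z form and drank no doxycycline, and Z-off mice (Z1) carried the same transgene and drank doxycycline at 40 µg per mL from conception onward. M-on (M4) and M-off (M1) mice carried the wild type M form under the same conditions. WT mice were littermates without the transgene and without doxycycline. No WT mice on doxycycline were in the groups, so the drug and the silenced transgene cannot be told apart within a line. The titles number the arrays as biological replicates.

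Alpha1-antitrypsin is a protease inhibitor that hepatocytes secrete, and its Z form misfolds and collects in the endoplasmic reticulum. Adult hepatocytes rest outside the cell cycle and can return to it after injury or tissue loss. Return runs through D cyclins and the RB-E2F switch, then through E and A cyclins and the replication genes, and ends in mitosis, while CDK inhibitors and genes of the Btg and Gadd45 families restrain it. The comparison of on with off addressed whether these genes moved with expression of either form, as transcripts that accompany hepatocyte turnover would.

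Arrays differed in ways that touch these genes. Probe set medians were 47.8 to 52.5 units in Z-on and 43.9 to 54.9 in M-on, against 32.0 to 32.2 in Z-off, 30.4 to 31.3 in M-off and 42.3 to 44.9 in WT. Lower quartiles were 12.1 to 16.4 in both on groups and 7.0 to 8.1 in both off groups. The median poly-A control probe set read 1.8 to 3.6 on the on arrays and 33.8 to 52.1 on the other arrays. This split follows the on groups exactly. Whatever lay behind it cannot be told apart from expression of the transgene where on groups are compared with off groups or WT. Arrays M-on 1 and M-on 2 went against the labelled sex: Xist, the X-inactivation RNA, read 1149.2 and 226.0 there and at most 74.3 elsewhere, and Y-linked Eif2s3y read 0.4 and 1.3 and at least 105.3 on all arrays but M-on 3, at 42.1. Counts in the M line, and the M line values of its called members, were therefore also computed without those 2 arrays. That fit leaves M-on 3 as the only M-on array, with the spread taken from the other groups, so its counts and calls are unreplicated. How far fewer arrays account for calls lost there was not tested. The liver markers Alb, Apoa1 and Ttr read 6729.3 to 18382.5 on every array, and each read higher on every WT array than on any transgenic array. Alb read 12758.3, 13392.2 and 15836.6 in WT and 6729.3 to 9642.3 on the transgenic arrays. The bearing of that difference on comparisons against WT was not tested.

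Many members were dim. Of the 46, 23 lay at or below the 40th percentile of mean signal (35.69 units), 27 read under 16 on at least 1 array, and Ccnb2, Cdc6, Bub1b and Kif20a read under 16 on all 15. In bulk liver, fewer cells with a transcript and less of it per cell cannot be told apart.

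More members were higher than lower when either transgene was on, and the same held for genes in general. A gene was called at a Benjamini-Hochberg adjusted p under 0.05 in limma, on log2(signal + 16), and changes below are on that scale. In Z-on minus Z-off, 15 members were called higher (32.6%), where 31.8% of all genes were, and 5 lower (10.9%), where 7.56% of all genes were. In M-on minus M-off, 23 members were called higher, as were 38.1% of all genes, and 2 lower (4.35%), where 12.5% of all genes were. The median change over the 46 members was 0.371 in the Z line and 0.495 in the M line, beside 0.249 and 0.295 over all genes. All 3 on arrays lay above all 3 off arrays for 18 members (39.1%) in the Z line, as they did for 42.2% of all genes, and for 24 (52.2%) in the M line, as for 44.2% of all genes. They lay below for 5 members in the Z line (12.8% of all genes) and 3 in the M line (13.9% of all genes).

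The excess of higher calls among members depended on the scaling, and it was lost in the Z line and became smaller in the M line. Quantile normalization, which gives all arrays 1 distribution, lowered the median change of all genes to 0.0477 in the Z line and to 0.10 in the M line. Members were then called higher in 3 cases and lower in 6 in the Z line, where 15.7% and 10.5% of all genes were, and their median change was 0.00719. In the M line 12 were then higher and 5 lower, where 23.5% and 15.5% of all genes were, with a median of 0.177. Of the calls made before, 8 of 20 in the Z line and 14 of 25 in the M line kept call and sign. Without arrays M-on 1 and M-on 2, 8 members were called higher and 2 lower in the M line, where 27.1% and 11.3% of all genes were. Both on-off changes named the same 13 members as higher and the same 2, Cdkn1b and Gadd45a, as lower, and 0 members were called in opposite directions. The share of all genes called alike in both lines was not counted, so these numbers have no background beside them. Each count of a role or list below stands beside these shares of all genes: 31.8% higher in the Z line and 38.1% in the M line, then 15.7% and 23.5% after quantile normalization, and 27.1% in the M line without M-on 1 and 2.

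**Figure D1:**
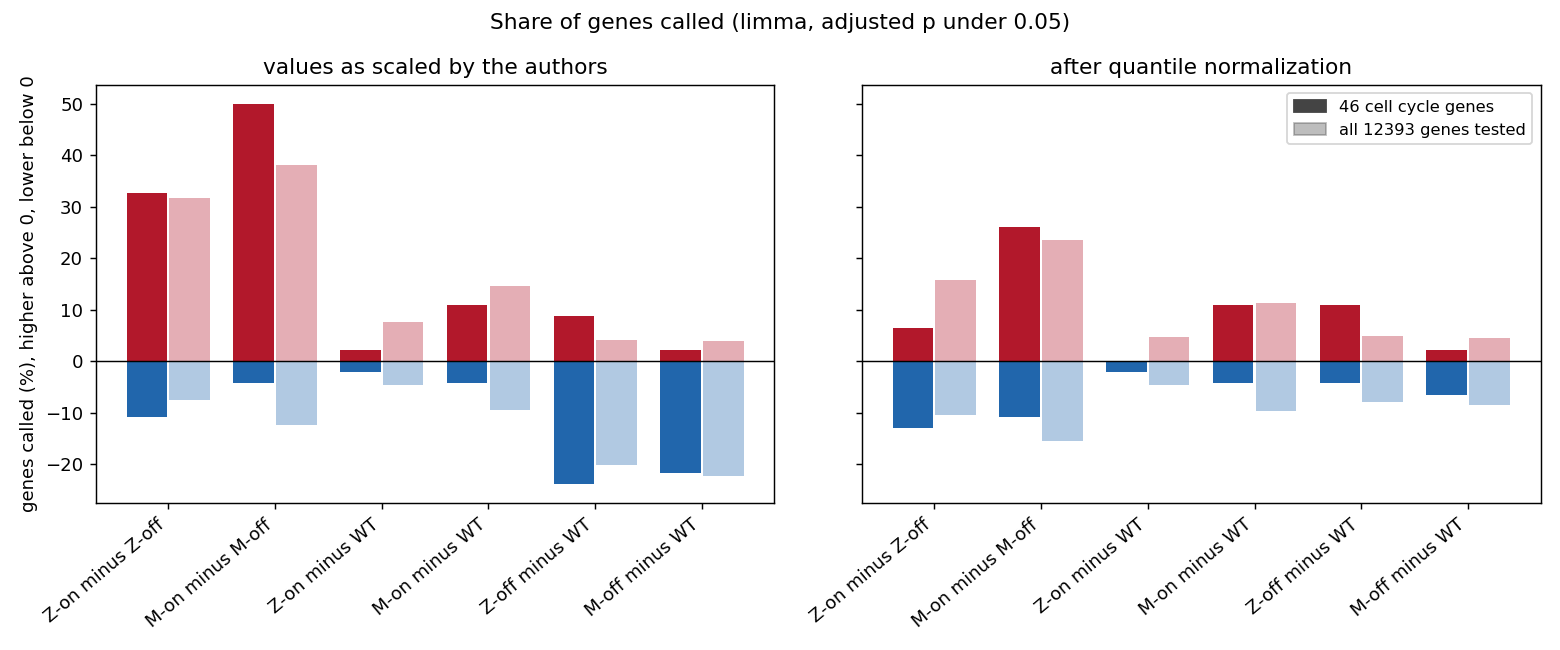
Percent of genes called higher (bars above 0) and lower (bars below 0) in 6 comparisons, for the 46 members (dark) and all 12393 genes (pale), with values as deposited on the left and after quantile normalization on the right. In Z-on minus Z-off the members' 32.6% higher stands beside 31.8% of all genes on the left, and the share of members falls to 6.52% on the right.

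**Figure D2:**
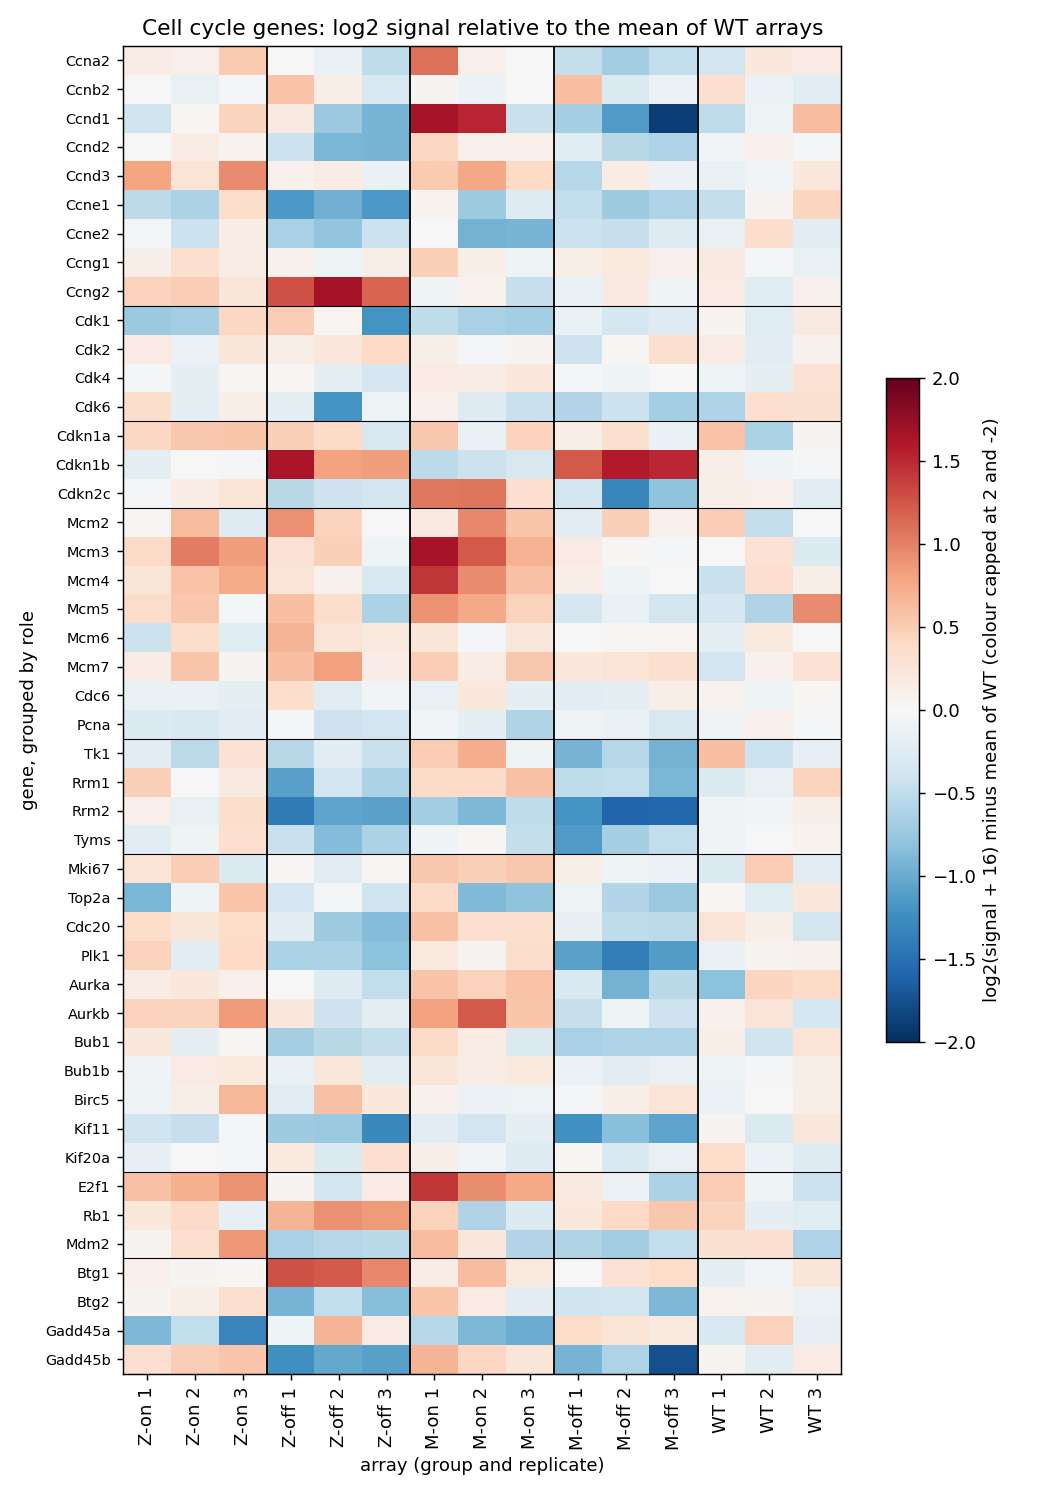
Level of each of the 46 members on each of the 15 arrays, as log2(signal + 16) minus its mean over the WT arrays, with members grouped by role and colour capped at 2 and -2. Rrm2, Plk1 and Gadd45b are blue and Cdkn1b is red on the 6 arrays of the off groups, and Gadd45a is blue on the on arrays.

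Among mitosis genes, 5 of 11 (45.5%) were called higher in the Z line and 8 of 11 (72.7%) in the M line. After quantile normalization 0 and 3 of 11 were, and without M-on 1 and 2 there were 4 in the M line. None was called lower in these fits. Plk1, the kinase that drives centrosome maturation and spindle assembly, read 51.8, 26.8 and 49.2 in Z-on, 15.8, 16 and 12.1 in Z-off, 40.6, 35.4 and 47.4 in M-on, 7.5, 3.0 and 6.7 in M-off, and 29.2, 35.1 and 36.3 in WT. The on arrays lay above the off arrays without overlap in both lines, and the WT arrays lay with the on arrays. Plk1 rose by 0.91 (SE 0.17, limma adjusted p = 0.000980, n = 3 against 3) in the Z line and by 1.40 (SE 0.17, adjusted p = 2.77e-05) in the M line. Without M-on 1 and 2, M-on 3 alone gave 1.55 in the M line. After quantile normalization the M line's rise of 1.00 kept its call, and the Z line's value of 0.40 had an adjusted p of 0.123.

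Cdc20, the activator of the anaphase-promoting complex, read 53.3, 47.4 and 52.7 in Z-on and 29.5, 16.8 and 13.3 in Z-off. It read 64.2, 51.4 and 50.7 in M-on, 31.5, 21.7 and 21.0 in M-off, and 47.8, 41.8 and 25.4 in WT. On and off arrays did not overlap in either line. The rises were 0.93 (SE 0.19, adjusted p = 0.00178) and 0.81 (SE 0.19, adjusted p = 0.00289). They were 0.44 (adjusted p = 0.111) and 0.33 (adjusted p = 0.192) after quantile normalization, and 2 dimmer probe sets of Cdc20 were not called in either line.

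The spindle motor Kif11 rose by 0.62 in the Z line and 0.77 in the M line, the Aurora kinase of the chromosomal passenger complex Aurkb by 0.72 and 1.18, and the checkpoint kinase Bub1 by 0.58 and 0.70. Aurka, the centrosomal Aurora kinase, rose by 1.13 in the M line and was at 0.41 (adjusted p = 0.250) in the Z line. The checkpoint kinase Bub1b rose by 0.36 and the proliferation antigen Mki67 by 0.55 in the M line, and both calls ended without some single array. Aurkb read 24.7, 38.2 and 18.1 in M-on and 0.9, 5.7 and 1.5 in M-off (SE 0.22, adjusted p = 0.000557). It read 16, 15.8 and 26.0 in Z-on, 10.9, 1.5 and 4.3 in Z-off, and 8.7, 11.9 and 2.3 in WT. All M-on arrays exceeded all M-off and WT arrays, and most of these readings lay near or under the added constant of 16.

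Mki67 and Top2a, both widely used as proliferation markers, read low on all arrays. Mki67 read 11.7, 16.5 and 2.9 in Z-on, 7.5, 3.9 and 7.4 in Z-off, 17.3, 16.2 and 17.3 in M-on, 8.9, 5.6 and 5.3 in M-off, and 2.8, 16.8 and 3.8 in WT. M-on lay above M-off, and 1 WT array read within the range of M-on. Its change was 0.55 (SE 0.22, adjusted p = 0.0482) in the M line, 0.56 without M-on 1 and 2, and 0.21 (adjusted p = 0.465) in the Z line. Leaving out any of 10 single arrays ended the M call (0.51 to 0.62). Top2a, the topoisomerase that untangles sister chromatids, read 1.2, 14.6 and 31.3 in Z-on, 9.7, 15.6 and 8.4 in Z-off, 26.0, 1.6 and 2.6 in M-on, 14.1, 5.6 and 3.4 in M-off, and 17.3, 11.2 and 21.3 in WT. All groups overlapped, with changes of 0.11 (SE 0.36, adjusted p = 0.836) and 0.04 (SE 0.36, adjusted p = 0.932). The survivin gene Birc5 and the cytokinesis motor Kif20a were not called in any comparison.

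Promoters of 6 of the members called in both lines are shown: the 4 mitosis genes among them with a listed window, the S-phase gene Rrm2, and the inhibitor Cdkn1b that fell. Sequences are RefSeq windows of 300 bases in the mouse build GRCm38.p6, on the gene's strand, from 250 bases before to 50 after the annotated start. Capitals mark the CHR element TTTGAA and the CCAAT box, searched on both strands, so that TTCAAA and ATTGG are the same motifs on the other strand. The windows are Plk1 chr7:122159185-122159484 (plus strand), Cdc20 chr4:118437294-118437593 (minus), Kif11 chr19:37376132-37376431 (plus), Bub1 chr2:127831810-127832109 (minus), Rrm2 chr12:24708004-24708303 (plus) and Cdkn1b chr6:134920151-134920450 (plus).
Plk1: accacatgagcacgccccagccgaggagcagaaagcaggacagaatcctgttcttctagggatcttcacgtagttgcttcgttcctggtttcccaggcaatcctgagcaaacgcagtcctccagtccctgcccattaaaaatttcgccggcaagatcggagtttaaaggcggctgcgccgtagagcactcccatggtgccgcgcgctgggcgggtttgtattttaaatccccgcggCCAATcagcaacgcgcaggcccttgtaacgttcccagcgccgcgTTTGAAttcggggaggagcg
Cdc20: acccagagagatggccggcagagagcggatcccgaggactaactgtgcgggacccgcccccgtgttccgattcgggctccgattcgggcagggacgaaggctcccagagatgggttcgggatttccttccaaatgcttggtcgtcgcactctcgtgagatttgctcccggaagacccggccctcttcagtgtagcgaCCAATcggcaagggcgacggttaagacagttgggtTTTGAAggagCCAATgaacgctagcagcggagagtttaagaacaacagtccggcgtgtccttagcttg
Kif11: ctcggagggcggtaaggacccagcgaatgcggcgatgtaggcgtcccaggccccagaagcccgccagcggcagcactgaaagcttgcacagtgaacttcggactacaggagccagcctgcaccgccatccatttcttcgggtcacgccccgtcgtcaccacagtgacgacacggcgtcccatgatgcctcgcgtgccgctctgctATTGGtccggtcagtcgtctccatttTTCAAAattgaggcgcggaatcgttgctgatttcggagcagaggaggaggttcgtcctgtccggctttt
Bub1: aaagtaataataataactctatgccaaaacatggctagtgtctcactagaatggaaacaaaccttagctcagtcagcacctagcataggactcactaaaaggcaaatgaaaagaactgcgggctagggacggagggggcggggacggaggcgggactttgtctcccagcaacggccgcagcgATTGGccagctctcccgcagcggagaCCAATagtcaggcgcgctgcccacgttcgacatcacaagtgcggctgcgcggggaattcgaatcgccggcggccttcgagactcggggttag
Rrm2: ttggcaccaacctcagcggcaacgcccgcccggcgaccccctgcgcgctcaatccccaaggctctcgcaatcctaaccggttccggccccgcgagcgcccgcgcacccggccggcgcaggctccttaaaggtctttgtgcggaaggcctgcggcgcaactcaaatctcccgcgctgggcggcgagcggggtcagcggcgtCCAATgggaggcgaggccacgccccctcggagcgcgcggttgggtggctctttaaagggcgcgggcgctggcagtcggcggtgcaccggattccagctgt
Cdkn1b: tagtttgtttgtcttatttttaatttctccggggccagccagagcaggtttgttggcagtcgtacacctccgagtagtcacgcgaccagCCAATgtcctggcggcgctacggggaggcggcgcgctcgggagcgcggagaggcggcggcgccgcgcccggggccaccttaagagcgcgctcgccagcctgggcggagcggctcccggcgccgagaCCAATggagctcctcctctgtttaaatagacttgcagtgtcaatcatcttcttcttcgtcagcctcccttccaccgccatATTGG
The windows of Plk1, Cdc20 and Kif11 hold both strings of letters, and those of Bub1, Rrm2 and Cdkn1b hold CCAAT without TTTGAA. Cdk1 and Top2a, which were not called, have TTTGAA 2 times each in theirs. Windows were listed for 38 of the 46 members. TTTGAA was in 10 of them (26.3%), beside 18.1% of 27025 windows of the same length, and CCAAT in 26 (68.4%), beside 37.9%. The E2F-type strings TTTGGCG or TTTCGCG were in 5 (13.2%), beside 2.39% of windows, and the E-box CACGTG in 4 (10.5%), beside 7.24%. A match describes letters in the window and no binding was measured.

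In nucleotide synthesis, 3 of 4 members were called higher in the Z line and all 4 in the M line. After quantile normalization 1 and 2 of the 4 were, and without M-on 1 and 2 there were 2 in the M line. Rrm2, the regulated subunit of ribonucleotide reductase, read 96.2, 78.4 and 116.7 in Z-on, 23.2, 34.2 and 33.7 in Z-off, 48.2, 39.7 and 56.9 in M-on, 29.5, 18.7 and 19.1 in M-off, and 83.4, 84.5 and 96.9 in WT. Both off groups lay below all other arrays, M-on lay between, and Z-on overlapped WT. Rrm2 rose by 1.28 (SE 0.17, adjusted p = 8.37e-05) in the Z line and by 0.74 (SE 0.17, adjusted p = 0.00224) in the M line. After quantile normalization the changes were 0.88 (adjusted p = 0.00246) and 0.24 (adjusted p = 0.290). The 2 other probe sets of Rrm2, both dimmer, were not called (0.65 and 0.32 in the Z line, 0.56 and -0.08 in the M line).

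Rrm1, the large subunit of the same enzyme, read 89.5, 58.8 and 69.6 in Z-on, 19.7, 42.0 and 32.8 in Z-off, 82.2, 82.0 and 97.3 in M-on, 37.0, 37.6 and 23.9 in M-off, and 45.5, 52.2 and 86.6 in WT. On arrays lay above off arrays without overlap in both lines. Rrm1 rose by 0.91 (SE 0.22, adjusted p = 0.00504) and 1.09 (SE 0.22, adjusted p = 0.00111). Thymidylate synthase Tyms rose by 0.66 and 0.58, with calls that ended without 2 single arrays in the Z line (0.49 and 0.55) and 3 in the M line (0.40 to 0.53). Thymidine kinase Tk1 rose by 1.19 in the M line, and by 0.71 without the call when M-on 1 and 2 were left out. Its Z line value was 0.25 (adjusted p = 0.509).

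Of 8 replication licensing genes, 3 (37.5%) were called higher in the M line, near the 38.1% of all genes, and none lower. After quantile normalization 1 was higher there, and without M-on 1 and 2 limma called 0. In the Z line limma called 0 of 8, and 2 of 8 had an unadjusted p under 0.05, while after quantile normalization 1 was lower. No called difference between the lines was found for any of them. Mcm3, a subunit of the MCM helicase, read 61.9, 42.4 and 24.4 in M-on, 12.1, 9.5 and 8.2 in M-off, 16.6, 34.9 and 28.6 in Z-on, 14.6, 18.8 and 7.5 in Z-off, and 8.7, 14.4 and 4.7 in WT. M-on arrays exceeded all M-off and WT arrays, and M-on 1 was the highest of the 15. Mcm3 rose by 1.14 (SE 0.24, adjusted p = 0.00149), and its value without M-on 1 and 2 was 0.64. Mcm4 rose by 0.97 and Mcm5 by 0.99, and without those arrays they were at 0.58 and 0.74.

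Pcna, the sliding clamp of DNA polymerase, was not called in any comparison. It read 393.6, 388.6 and 408.0 in Z-on, 468.7, 357.5 and 363.8 in Z-off, 462.7, 424.9 and 312.6 in M-on, 447.1, 439.6 and 383.4 in M-off, and 457.7, 515.5 and 472.6 in WT. On and off arrays overlapped in both lines, and the changes were 0.01 (SE 0.15, adjusted p = 0.963) and -0.09 (SE 0.15, adjusted p = 0.634). Mcm6 read 0.9 to 13.0 in Z-on and 10 to 20.2 in Z-off, at -0.48 (adjusted p = 0.0635), and after quantile normalization it passed as lower at -0.82 (adjusted p = 0.00576). It read 6.4 to 10.9 in M-on, 6.9 to 7.4 in M-off and 3.8 to 10.1 in WT. On their brightest probe sets Mcm2, Mcm7 and the loading factor Cdc6 were not called in any comparison. A dimmer probe set of Mcm2, at a mean of 17.9 units, exceeded M-off in M-on by 0.81 (adjusted p = 0.00741). It exceeded WT there by 0.64 (adjusted p = 0.0487). A dimmer probe set of Mcm7 exceeded WT by 0.75 in M-on (adjusted p = 0.00720) and by 0.65 in Z-off (adjusted p = 0.0157). Another of Mcm7 fell by 0.48 in the Z line (adjusted p = 0.0357).

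Of 9 cyclins measured, 3 (33.3%) were called higher and 1 lower in the Z line, and 4 (44.4%) higher and none lower in the M line. After quantile normalization these were 1 and 1 in the Z line and 3 and 2 in the M line, and without M-on 1 and 2 limma called 0 of 9 in the M line. Ccnd1, the D cyclin of the early response to liver loss, read 162.1, 225.6 and 304.5 in Z-on, 250.7, 125.5 and 107.6 in Z-off, 720.2, 660.8 and 157.2 in M-on, 132.3, 91.6 and 48.1 in M-off, and 150.4, 202.9 and 343.9 in WT. On this probe set, the brightest, the high readings were those of M-on 1 and M-on 2, the arrays at odds with their labelled sex. M-on 3 lay there within the range of the WT arrays. On the probe set with a mean of 125.5 units, M-on 3 read 105.8, above WT at 67.2, 72.5 and 70.9. M-on 1 and 2 read 389.4 and 387.3 on it, and M-on was called higher than WT (1.65, adjusted p = 0.0113). On the probe set with a mean of 215.8 units, M-on 3 read 146.6, within WT at 109.3, 184.9 and 186.0. On the brightest probe set Ccnd1 rose by 2.13 (SE 0.51, adjusted p = 0.00328) in the M line, and without M-on 1 and 2 its value was 0.78. In the Z line it was at 0.52 (SE 0.51, adjusted p = 0.443), with overlapping arrays.

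Ccnd2, another D cyclin, read 85.6, 97.3 and 91.1 in Z-on, 59.7, 38.6 and 37.6 in Z-off, 120.2, 93.8 and 94.0 in M-on, 70.7, 54.0 and 50.6 in M-off, and 83, 93.4 and 83.2 in WT. Off arrays lay below all others. Ccnd2 rose by 0.83 (SE 0.16, adjusted p = 0.00109) in the Z line and 0.67 (SE 0.16, adjusted p = 0.00286) in the M line, and both calls held after quantile normalization (0.48 and 0.43). Most of its 6 other probe sets were not called. Ccnd3 rose by 0.63 and 0.74, Ccne1 by 0.82 in the Z line and Ccna2 by 0.95 in the M line. The Ccnd3 call in the Z line ended without any 1 of 4 arrays (0.49 to 0.65) and that of Ccne1 without any 1 of 3 (0.51 to 0.79).

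Ccng2, an atypical cyclin linked to growth arrest, read 168.7, 225.7 and 154.6 in Z-off against 89.3, 90.7 and 74.3 in Z-on. It read 55.7, 63.8 and 39.3 in M-on, 53.3, 70.5 and 55.5 in M-off, and 69.2, 48.6 and 64.6 in WT. Z-off stood above all other arrays. Ccng2 fell by 0.97 (SE 0.18, adjusted p = 0.000845) in the Z line and was at -0.15 (adjusted p = 0.518) in the M line. Its dimmer probe set gave -0.24 (adjusted p = 0.414) in the Z line and rose by 0.91 in the M line (adjusted p = 0.00335). On their brightest probe sets, the E cyclin Ccne2, the p53 target Ccng1 and the B cyclin Ccnb2 were not called in any comparison. After quantile normalization Ccne2 passed as lower in the M line (-0.70, adjusted p = 0.0218). Calls of other Ccng1 probe sets are given below.

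Of the 4 cyclin-dependent kinases Cdk1, Cdk2, Cdk4 and Cdk6, limma called 0 in either line, and 0 had an unadjusted p under 0.05. Cdk1, the kinase of mitotic entry, read 7.2, 8.2 and 35.6 in Z-on, 38.6, 24.0 and 0.9 in Z-off, 11.4, 8.8 and 8.3 in M-on, 19.5, 14.5 and 16.5 in M-off, and 24.5, 17.0 and 27.9 in WT. The Z arrays overlapped and the M-on arrays lay below the M-off arrays. Its changes were -0.12 (SE 0.36, adjusted p = 0.827) and -0.36 (SE 0.36, adjusted p = 0.420).

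Of 3 CDK inhibitors measured, 1 fell in the Z line, and 1 rose and 1 fell in the M line, with the same counts after quantile normalization, and in the M line without M-on 1 and 2. Cdkn1b (p27), which holds resting cells out of S phase, read 45.2, 53.9 and 52.6 in Z-on, 200.3, 106.2 and 108.4 in Z-off, 32.6, 35.9 and 39.7 in M-on, 148.2, 193.1 and 183.2 in M-off, and 59.8, 49.5 and 52.7 in WT. Off arrays lay above all on and WT arrays. Cdkn1b fell by 1.16 (SE 0.19, adjusted p = 0.000384) in the Z line and by 1.87 (SE 0.19, adjusted p = 7.76e-06) in the M line. The falls were 1.43 and 2.10 after quantile normalization, and 1.77 in the M line without M-on 1 and 2. Its other probe set, at a mean of 10.4 units, was not called (0.17 and 0.21).

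Cdkn2c (p18), an inhibitor of the D cyclin kinases, read 179.7, 182.9 and 103.1 in M-on, 57.4, 22.3 and 38.2 in M-off, 76.1, 88.5 and 97.0 in Z-on, 48.6, 54.6 and 57.4 in Z-off, and 86.4, 85.3 and 65.5 in WT. M-on lay above every other group, with M-on 1 and 2 the highest. Cdkn2c rose by 1.64 (SE 0.23, adjusted p = 7.46e-05) in the M line and was at 1.16 without those 2 arrays. The Z line value was 0.57 (adjusted p = 0.0663), with on arrays above off arrays.

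Cdkn1a (p21), the main p53-driven inhibitor, read 37.8, 42.8 and 43.3 in Z-on, 39.8, 36.5 and 16.1 in Z-off, 42.5, 20.9 and 39.2 in M-on, 28.2, 34.4 and 20.7 in M-off, and 43.9, 10 and 25.9 in WT. Groups overlapped, and the changes were 0.33 (SE 0.28, adjusted p = 0.378) and 0.18 (SE 0.28, adjusted p = 0.620). Its dimmer probe set, at a mean of 3.89 units, was called higher in the Z line (0.41, adjusted p = 0.0333).

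**Figure D3:**
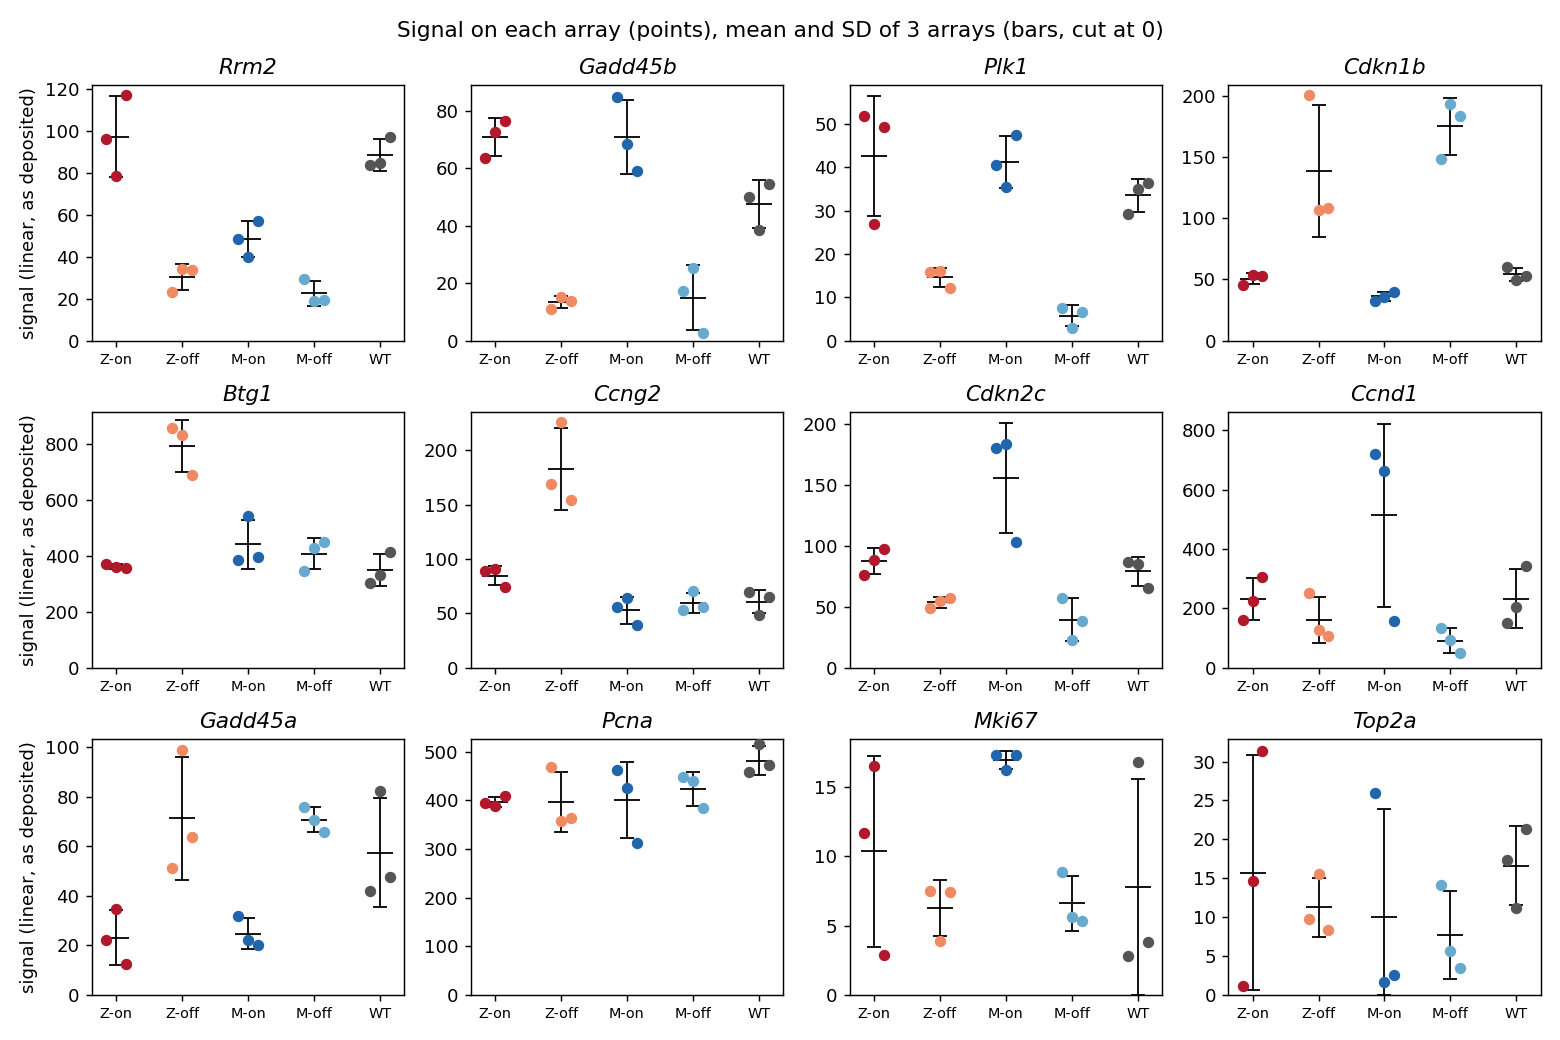
Deposited signal, on linear axes from 0, of 12 members on the 3 arrays of each group (points), with group mean and SD (bars). The off groups lie below the others for Rrm2, Plk1 and Gadd45b and above them for Cdkn1b, and M-on 1 and M-on 2 are the highest for Ccnd1.

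On the RB-E2F and p53 axis, 2 of 3 measured genes were called higher and 1 lower in the Z line, and 1 higher in the M line. After quantile normalization 0 were higher and 1 lower in the Z line and 1 each in the M line, and without M-on 1 and 2 limma called 0 in the M line. E2f1, the S-phase transcription factor, rose by 0.78 and 1.23 from low readings (29.6 to 40.8 in Z-on, 7.6 to 18.2 in Z-off, 35.4 to 65.7 in M-on, 3.6 to 18.4 in M-off, 6.7 to 27.2 in WT). Without M-on 1 and 2 the M line value was 0.95, and the Z call ended without any 1 of 4 arrays (0.62 to 0.83). The other E2f1 probe set, at a mean of 5.97 units, was called in neither line (-0.35 in the Z line and -0.15 in the M line). Rb1, the retinoblastoma repressor of E2F, fell by 0.67 (adjusted p = 0.0486) in the Z line, and the call ended without any 1 of 11 arrays (-0.73 to -0.51). Mdm2, the ubiquitin ligase that p53 induces and that degrades p53, read 93.1, 115.9 and 176.3 in Z-on, 50.8, 54.7 and 56.4 in Z-off, 144.6, 105.5 and 54.0 in M-on, 53.1, 48.6 and 59.0 in M-off, and 113.8, 114.6 and 52.6 in WT. Z-on lay above Z-off, while 1 array each of M-on and WT read as low as the off arrays. Mdm2 rose by 1.01 (SE 0.30, adjusted p = 0.0168) in the Z line and was at 0.68 (adjusted p = 0.0749) in the M line, or 0.01 there without M-on 1 and 2. The Z call ended without Z-on 3 (0.78) or Z-off 1 (0.97), and the other probe set of Mdm2 gave 0.06 (adjusted p = 0.853).

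Of 4 antiproliferative and growth arrest genes, 2 were called higher and 2 lower in the Z line, and 2 and 1 in the M line. After quantile normalization these were 1 and 2 in the Z line and 1 and 1 in the M line, and without M-on 1 and 2 they were 1 and 1 in the M line. Gadd45b, a stress sensor of the Gadd45 family, read 63.4, 72.7 and 76.3 in Z-on, 11, 15 and 13.8 in Z-off, 84.8, 68.5 and 59.1 in M-on, 17.1, 25.2 and 2.6 in M-off, and 49.9, 38.3 and 54.4 in WT. Off arrays were the lowest, and on arrays exceeded WT arrays. Gadd45b rose by 1.57 (SE 0.23, adjusted p = 0.000181) and 1.55 (SE 0.23, adjusted p = 0.000109), and by 1.11 and 1.17 after quantile normalization. Its other 2 probe sets were dimmer, and 1 of them, at a mean of 6.89 units, was called lower in the M line (-0.45, adjusted p = 0.0404).

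Gadd45a, its DNA damage relative, went the other way. It read 22.3, 34.5 and 12.5 in Z-on, 51.1, 98.9 and 63.8 in Z-off, 32.0, 22.2 and 20.0 in M-on, 75.9, 70.5 and 65.7 in M-off, and 42.0, 82.5 and 47.7 in WT. On arrays lay below all off and WT arrays. Gadd45a fell by 1.16 (SE 0.25, adjusted p = 0.00235) and 1.10 (SE 0.25, adjusted p = 0.00233), and by 1.47 and 1.43 after quantile normalization.

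Btg1, an antiproliferative gene linked to quiescence, read 372.5, 358.7 and 355.5 in Z-on, 858.8, 832.0 and 688.4 in Z-off, 385.4, 541.4 and 397.5 in M-on, 345.4, 428.8 and 449.2 in M-off, and 302.4, 331.8 and 414.2 in WT. On this probe set Z-off alone stood apart, above every other array. Btg1 fell by 1.09 (SE 0.16, adjusted p = 0.000208) in the Z line and was at 0.10 (adjusted p = 0.629) in the M line. On its second probe set, at a mean of 253.6 units, Z-off also lay above every other array, and M-off was called higher than WT (0.64, adjusted p = 0.0145). Btg2, its p53-inducible relative, read 60.8, 65.6 and 76.3 in Z-on, 22.7, 36.6 and 24.9 in Z-off, 92.6, 66.9 and 48.3 in M-on, 40.1, 41.2 and 23.7 in M-off, and 61.6, 60.7 and 52.2 in WT. On this probe set, on arrays lay above off arrays in both lines and overlapped WT. Btg2 rose there by 0.93 (SE 0.20, adjusted p = 0.00224) and 0.73 (SE 0.20, adjusted p = 0.00748), and was at 0.35 in the M line without M-on 1 and 2. Its other probe set, at a mean of 43.9 units, read 75.7, 44.2 and 49.3 in M-on and 12.4, 82.6 and 49.5 in M-off. It was not called in the M line (0.32, adjusted p = 0.486), and in the Z line its on arrays lay above its off arrays.

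Some of these calls rested on single arrays. With each array left out in turn, 11 of 20 Z line calls held throughout: Ccnd2, Ccng2, Cdkn1b, Rrm1, Rrm2, Cdc20, Plk1, Btg1, Btg2, Gadd45a and Gadd45b. The calls of Kif11 (0.43 and 0.49), Aurkb (0.58 to 0.69) and Bub1 (0.48 to 0.59) in the Z line ended without any 1 of 2, 3 and 4 arrays, respectively, and without Z-on 3 the Z line had 11 called members. In the M line 21 of 25 calls held throughout, and those of Mcm5, Tyms, Bub1b and Mki67 did not. Without both M-on 1 and M-on 2, M-on 3 alone stood for the group, so changes of single members are given as sizes only. Kif11 was at 0.84, Aurkb at 0.88, Aurka at 1.17, Rrm1 at 1.23, Rrm2 at 0.94, Gadd45a at -1.27 and Gadd45b at 1.35. The call was lost for Cdc20 at 0.72, Ccnd2 at 0.57, Ccna2 at 0.55, Ccnd3 at 0.58, Bub1b at 0.36, Bub1 at 0.33 and Tyms at 0.29. It was also lost for Mki67, Tk1, Mcm3, Mcm4, Mcm5, Ccnd1, E2f1 and Btg2, at the values given above. Among called members with another probe set, that other was called the same way for 5 of 15 in the Z line and 5 of 16 in the M line, and the opposite way for 0 and 1 (Gadd45b).

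**Figure D4:**
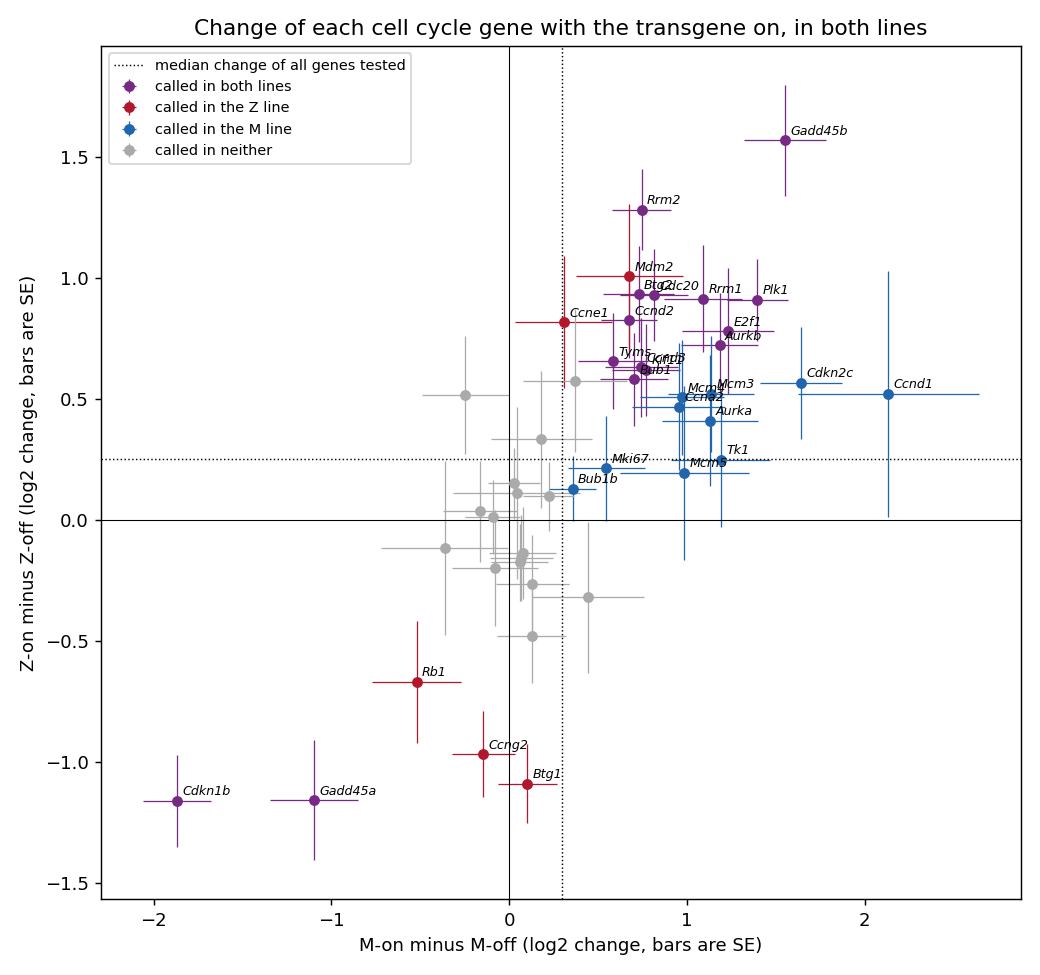
Change on minus off in log2 units in the M line (horizontal axis) and the Z line (vertical axis) for each of the 46 members, with SE bars, coloured by where the member was called; dotted lines mark the median of all genes. Cdkn1b and Gadd45a lie low in both lines, Ccnd1 and Cdkn2c lie farthest right, and Btg1 and Ccng2 lie low on the Z axis and near 0 on the M axis.

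Between the on groups, few members differed. In Z-on minus M-on, 1 of 46 members was called higher (3.68% of all genes) and none lower (1.48% of all genes), and 3 members had an unadjusted p under 0.05. Rrm2 was higher in Z-on, by 0.81 (SE 0.17, adjusted p = 0.0219), in all 3 arrays over all 3. The call ended without Z-on 1 (0.81, adjusted p = 0.0561), Z-on 3 (0.69, adjusted p = 0.0745) or M-on 2 (0.71, adjusted p = 0.108), and without M-on 1 and 2 together (0.62). Next were Ccng2 at 0.56 (adjusted p = 0.0851) and Cdkn2c at -0.70 (adjusted p = 0.0984). A dimmer probe set of Ccng1, at a mean of 123.4 units, was called higher in Z-on (1.31, adjusted p = 0.0094).

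Between the off groups, 2 members were called higher in Z-off (0.0807% of all genes) and none lower (0.0484% of all genes). Ccng2 was higher by 1.38 (SE 0.18, adjusted p = 0.00823) and Btg1 by 0.93 (SE 0.16, adjusted p = 0.0492), with no overlap of arrays. The Btg1 call ended without any 1 of 10 arrays (0.82 to 1.01). Second probe sets were not called for Ccng2 (1.14, adjusted p = 0.0680) or Btg1 (0.91, adjusted p = 0.0619). The on-off change of Btg1 also differed between the lines, at -1.19 (SE 0.23, adjusted p = 0.0427), or -1.06 without M-on 1 and 2. On the brightest probe sets it was the 1 member called in that difference, where 0.307% of all genes were called lower and 0.307% higher. A dimmer probe set of Ccng1, at a mean of 123.4 units, was also called there (1.55, adjusted p = 0.0499). These comparisons share the Z-off and M-off arrays.

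All comparisons against WT share the 3 WT arrays. In Z-on minus WT, Ccnd3 was called higher (7.55% of all genes) at 0.67 (SE 0.21, adjusted p = 0.0498) and Gadd45a lower (4.74% of all genes) at -0.91 (SE 0.25, adjusted p = 0.0286). Ccnd3 read 267.2, 183.3 and 300.6 in Z-on and 131.9, 142.8 and 174.5 in WT, without overlap. Its call ended without any 1 of 10 arrays (0.53 to 0.67), and that of Gadd45a without Z-on 1, Z-on 3 or WT 2 (-0.91 to -0.68).

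In M-on minus WT, 5 members were called higher (14.6% of all genes) and 2 lower (9.48% of all genes). Mcm3 rose by 1.19 (SE 0.24, adjusted p = 0.00378), Mcm4 by 0.99 (SE 0.24, adjusted p = 0.00934), E2f1 by 1.04, Aurkb by 0.86 and Cdkn2c by 0.82. Rrm2 fell by 0.70 (SE 0.17, adjusted p = 0.00883) and Gadd45a by 0.82. Mcm4 read 96.3, 64.8 and 47.1 in M-on and 14.7, 36.6 and 29.3 in WT. Without M-on 1 and 2, which left M-on 3 alone for the group, none of these 7 members kept its call. Ccne2 was then at -0.94 and Pcna at -0.60. No other probe set of Mcm3 (-0.25 to 0.73), Mcm4 (0.29) or E2f1 (0.02) was called in M-on minus WT. The other probe set of Aurkb, at a mean of 5.96 units, was called the opposite way, lower in M-on at -0.52 (adjusted p = 0.0451). The call of Aurkb also ended without M-on 2 (0.68), and those of Cdkn2c (0.69 to 0.71) and Gadd45a (-0.78 to -0.59) each without any 1 of 3 arrays.

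Members lower than WT outnumbered those higher in both off groups, at shares near those of all genes. In Z-off minus WT, 11 were called lower (23.9%, beside 20.3% of all genes) and 4 higher (4.09% of all genes). Ccng2 rose by 1.37 (SE 0.18, adjusted p = 0.000337), Btg1 by 1.15 (SE 0.16, adjusted p = 0.000579), Cdkn1b by 1.09 and Rb1 by 0.81. Rrm2 fell by 1.18 (SE 0.17, adjusted p = 0.000579), Gadd45b by 1.11, Ccne1 by 1.08, Kif11 by 0.91, Ccnd2 by 0.76, Btg2 by 0.76, Rrm1 by 0.70, Plk1 by 0.69, Tyms by 0.65, Cdc20 by 0.60 and Bub1 by 0.56. In M-off minus WT, 10 were called lower (21.7%, beside 22.4% of all genes) and 1 higher (3.99% of all genes). Rrm2 fell by 1.45 (SE 0.17, adjusted p = 0.000134), Plk1 by 1.19 (SE 0.17, adjusted p = 0.000397), Gadd45b by 1.10, Kif11 by 1.03, Cdkn2c by 0.82, Tk1 by 0.81, Tyms by 0.76, Rrm1 by 0.64, Bub1 by 0.62 and Ccnd2 by 0.47, while Cdkn1b rose by 1.44 (SE 0.19, adjusted p = 0.000265). A dim probe set of Gadd45b was called the opposite way in M-off minus WT, at 0.59 (adjusted p = 0.0222). After quantile normalization 2 members were lower (7.98% of all genes) and 5 higher (4.85% of all genes) in Z-off, and 3 lower (8.46% of all genes) and 1 higher (4.56% of all genes) in M-off. With each array left out, 8 of 15 calls held throughout in Z-off minus WT and 5 of 11 in M-off minus WT, where 6 members were called without M-off 2 and 7 without M-off 1 or M-off 3. Across all 9 comparisons, on the brightest probe set of each gene, 30 members were called at least once and 16 in none. Among the 16 were Cdk1, Cdkn1a, Pcna and Top2a. The share of all genes called at least once was not counted, so the 30 have no background beside them.

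Other genes of these pathways were counted in the same way. Of 52 other replication and mitosis genes measured, 17 (32.7%, beside 31.8% of all genes) were called higher and 3 lower in the Z line, and 25 (48.1%, beside 38.1%) higher and 3 lower in the M line. After quantile normalization these were 7 and 7, and 17 and 6, and without M-on 1 and 2 they were 19 and 3 in the M line. The kinetochore gene Cenpf rose by 1.36 and 1.96 and DNA ligase Lig1 by 1.32 and 1.61. Of 13 other inhibitors, 4 (30.8%) were higher in each line and 2 lower in the M line, and after quantile normalization 3 and 2, and 3 and 3. The mitotic inhibitor kinase Wee1 rose by 1.74 and 1.77. Of 18 p53 target genes, 5 (27.8%) were higher and 2 lower in the Z line and 8 (44.4%) higher and 2 lower in the M line. After quantile normalization 2 were higher and 3 lower in the Z line, and 6 and 3 in the M line. Phlda3 rose by 1.47 and 1.35 and Plk2 fell by 1.46 in the Z line. Of 13 hepatocyte mitogens and receptors, 4 (30.8%) were higher in the Z line, and 7 (53.8%) higher and 2 lower in the M line, which became 3, and 4 and 2, after quantile normalization. Among them were the interleukin-6 receptor Il6ra, up by 1.98 and 1.59, and hepatocyte growth factor Hgf, up by 0.90 and 0.93. Of 16 clock genes, 7 (43.8%) were higher and 3 lower in the Z line and 5 (31.2%) higher and 3 lower in the M line, which became 7 and 5, and 3 and 6, after quantile normalization, with Tef up by 1.71 and 1.37. Without M-on 1 and 2, the M line counts were 3 higher and 3 lower for inhibitors, 6 and 4 for p53 targets, 4 and 1 for mitogens and receptors, and 3 and 2 for clock genes. The sources used here gave no time of day for the collection of the livers.

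Markers of other liver cells were read in the same comparisons. Summed signal of 11 lymphocyte markers was 253.7 to 314.6 in Z-on, 123.9 to 135.4 in Z-off, 322.8 to 389.1 in M-on, 80.2 to 171.2 in M-off and 223.4 to 268.5 in WT. Of these, 3 (27.3%) were called higher in the Z line and 6 (54.5%) in the M line, among them the B cell genes Cd79a and Ms4a1. After quantile normalization 0 and 3 were, and without M-on 1 and 2 there were 6 in the M line. Of the 11, 9 read under 16 on all Z-off arrays. Of 13 macrophage and Kupffer cell markers, 2 fell in the Z line (sums 1545 to 2225 in Z-on, 1709 to 2928 in Z-off) and 6 rose in the M line (3106 to 3918 in M-on, 2239 to 2390 in M-off, 2629 to 4066 in WT). Of 7 endothelial markers, 1 rose in the Z line and 4 in the M line, and of 8 stellate cell markers 4 and 2 rose. Of 9 hepatocyte markers, 2 fell in the Z line, and 1 rose and 1 fell in the M line. Their summed signal was highest in WT, at 74150 to 83920. It was 45370 to 48700 in Z-on, 51630 to 61000 in Z-off, 44980 to 52730 in M-on and 50010 to 55910 in M-off. After quantile normalization 2 macrophage markers were lower in the Z line, and 4 were higher and 1 lower in the M line. Endothelial counts were then 1 higher and 1 lower, and 3 and 1, stellate counts 3 and 1, and 1 and 2, and 2 and 1 hepatocyte markers were higher. Without M-on 1 and 2, the M line counts were 2 higher and 1 lower for macrophage, 3 and 1 for endothelial, 2 and 0 for stellate, and 0 and 2 for hepatocyte markers. With all arrays, 1 of 5 erythroid markers was called higher in each line, and after quantile normalization 0 were. Their summed signal was 395.6 to 691.5 in Z-on and 470.2 to 1290 in Z-off. It was 529.1 to 587.3 in M-on, 519.3 to 623.8 in M-off and 498.0 to 1362 in WT. Of 5 cholangiocyte markers, 1 was called lower in the M line, and after quantile normalization 1 was lower in each line. The part of other cell types in the members' changes was not tested.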

How the data were processed

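Liver RNA of 15 mice was hybridised to Affymetrix mouse arrays. The deposited values are linear intensity values from 0 to 22995.4 for 22690 probe sets. RMA, with no version, is the tool named in the submitters' processing notes. RMA gives log2 values and these were linear, so how the authors scaled them stays unknown.

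Of the probe sets, 20380 had 1 gene in the platform annotation, 691 several and 1555 none, and 64 were controls. Per gene the probe set brightest over all arrays was used, for 12393 genes. After adding 16 and taking log2, limma 3.58.1 in R 4.3.3 fitted 1 mean per group to all arrays (10 residual and 3.88 prior degrees of freedom). All 9 comparisons were two-sided, adjusted by Benjamini-Hochberg over all genes and called under 0.05. The constant makes the fold sizes of dim genes smaller than the ratios of their signals. Lower quartiles also differed, at 12.1 to 16.4 on the on arrays and 7.0 to 8.1 on the off arrays. How far that difference enters the on-off changes of dim genes was not tested.

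Alternatives were quantile normalization, constants of 1 and 64, a filter at the 40th percentile of mean signal, the mean of all probe sets of a gene, a fit of only the groups compared, the replicate number as a block, each array left out, and M-on 1 and 2 left out. The last of these left M-on 3 as the only M-on array. The members and lists were chosen with earlier results of these data known. All 46 measured members are accounted for. Per-array values are given for the called members of smallest adjusted p, for a set of named markers, and for a few more chosen after their values were seen. From other lists, up to 3 called genes of smallest adjusted p could be named. Tested on simulated data for Z-on minus Z-off over 12393 genes, the fit found 20% of true changes of 0.585, 62% of 1, 94% of 2 and 72% of -1, with 0.0738% false calls among unchanged genes. The simulation changed a small share of the genes, in normal noise with no difference in level between arrays. In the deposited values 31.8% of genes were called higher in that comparison and array medians differed, so these rates may not hold there. No depth applies to arrays, and 3 arrays a group limit the precision. Plots used matplotlib 3.10.9 (Python 3.11.15). Promoter windows came from a RefSeq table of GRCm38.p6.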

Additional observations from a re-analysis of the deposited data

Results flagged for a closer look

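The change of Btg1 on minus off differed between the lines, at -1.19 (SE 0.23, limma adjusted p = 0.0427), by the test of the difference itself. Btg1 fell by 1.09 in the Z line and was at 0.10 in the M line, and it was higher in Z-off than in M-off on 3 of 3 arrays. After quantile normalization the difference was -1.21 (adjusted p = 0.0428). Without M-on 1 and 2, with M-on 3 alone for that group, it was -1.06. Leaving out any 1 of 11 arrays ended the call, with values of -1.27 to -1.04. Its second probe set gave -0.82 (adjusted p = 0.144).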

How the results depend on the processing

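No called change of a member reversed in any alternative. Of 84 calls of members over the 9 comparisons, those lost numbered 41 after quantile normalization, 27 with the mean of all probe sets, 25 without M-on 1 and 2, 17 with a constant of 1, 16 with only the groups compared, 11 with the replicate number as a block and 8 with a constant of 64. The filter on dim genes lost 0 of 55 calls that it kept in the fit. Counts of called members moved by over 1.5 times as follows. After quantile normalization they were 9 in Z-on minus Z-off, 2 in Z-on minus M-on, 1 in Z-on minus WT, 7 in Z-off minus WT, 4 in M-off minus WT and 1 in Z-off minus M-off. A constant of 1 gave 0 in Z-on minus M-on, 1 in Z-on minus WT, 4 in M-on minus WT, 1 in Z-off minus M-off and 0 in the difference between lines. With the mean of all probe sets they were 1 in Z-on minus WT, 3 in M-on minus WT and 0 in the difference between lines. With only the groups compared they were 0 in Z-on minus M-on, 0 in Z-on minus WT, 2 in M-on minus WT, 1 in Z-off minus M-off and 0 in the difference between lines. The filter on dim genes, which kept 23 members, gave 13 in M-on minus M-off and 7 in M-off minus WT. Without M-on 1 and 2 there were 10 in M-on minus M-off and 2 in M-on minus WT. Where limma called 0 members, 4 to 9 had an unadjusted p under 0.05 in these fits. The causes were not tested, beyond the fewer genes or arrays that a filter or a left-out array leaves.

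With each array left out, counts ranged from 11 to 21 in Z-on minus Z-off, 21 to 26 in M-on minus M-off, 0 to 2 in Z-on minus M-on, 0 to 3 in Z-on minus WT, 4 to 8 in M-on minus WT, 11 to 16 in Z-off minus WT, 6 to 13 in M-off minus WT, 1 to 2 in Z-off minus M-off and 0 to 2 in the difference between lines. The lowest counts came without Z-on 3 in the Z line, without M-on 2 in M-on minus WT and without M-off 2 in M-off minus WT. Same-numbered arrays did not deviate together (correlations of -0.171 to 0.0662 over 30 pairs, with 2 of 15 arrays closest to their own number), so the numbers were not taken to pair the arrays. With the replicate block, 1 member was called in Z-off minus M-off and 0 in the difference between lines. How far signal over background limits the 23 dim members was not tested.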

Other observations

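Probe sets of Ccng1, a p53 target, and Cdk4, a D cyclin kinase, gave different readings of the same gene, and both were singled out after their values were seen. The brightest probe set of Ccng1 was at 0.03 (SE 0.15) in M-on minus M-off, while another, at a mean of 123.4 units, read 63.9, 39.6 and 28.7 in M-on and 187.1, 185.0 and 179.6 in M-off. That probe set of Ccng1 fell by 1.78 (SE 0.21, limma adjusted p = 2.96e-05 over all probe sets with 1 gene) and the third fell by 0.70 (adjusted p = 0.0302). In the Z line they were at -0.23 and 0.17, neither called. The probe set with a mean of 123.4 units was also lower in M-on than in WT (-1.03, adjusted p = 0.00460). It was higher in M-off than in WT (0.75, adjusted p = 0.0222). It was also higher in Z-on than in M-on, and its on-off change differed between the lines, at the values given above. A second Cdk4 probe set read 124.0, 168.9 and 119.5 in M-on and 57.7, 52.5 and 95.2 in M-off and rose by 0.88 (SE 0.21, adjusted p = 0.00354), where the brightest was at 0.22 (adjusted p = 0.211).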
